A study of Mus musculus with 4 samples.

Results

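The 9 genes described here are the 3 transforming growth factor beta (TGF-beta) ligands Tgfb1, Tgfb2 and Tgfb3, and 6 genes of the wound matrix, Tgfbi, Postn, Thbs1, Tnc, Fn1 and Lox. They were chosen by symbol, and all 9 of 9 were found among the 31017 gene symbols of the count matrices. The study asked, per the labels, how juvenile mouse testis kept in organ culture compares with testis that matured in the animal, using 4 single-cell RNA sequencing libraries with 1 library in each group. Per the labels, all mice were of the strain Acr-Gfp tg mouse (C57BL/6), which carries a green fluorescent protein transgene under the promoter of the acrosin gene, so the controls carry it too. For the culture groups, testes of mice at 7 days postpartum (dpp) were decapsulated and divided into fragments, which stayed for 2 or 7 days on agarose gel, covered by a polydimethylsiloxane (PDMS) ceiling chip, in the medium α-MEM supplemented with AlbuMAX. The other libraries came from testes at 9 dpp and at 14 dpp, the ages that the cultured testes would have reached in the animal. The 2-day culture with 9 dpp is called the early pair, and the 7-day culture with 14 dpp the late pair. The labels do not say how many animals were pooled, and culture, library and any preparation difference cannot be told apart.

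TGF-beta ligands are secreted in a latent form bound to matrix proteins, and once released they bind a pair of receptor kinases that phosphorylate SMAD transcription factors. The pathway is a central inducer of matrix genes in wound repair and fibrosis. Thrombospondin 1, encoded by Thbs1, can itself release the ligand from its latent complex.

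Promoter sequences are shown for Tgfb2 and for 3 matrix genes because the levels of these genes differed between culture and the animal, described below by cell class. RefSeq promoters of the build GRCm38.p6 were matched for 5 of the 9 genes, namely Tgfb1, Tgfb2, Tgfbi, Postn and Tnc. Tgfb3, Thbs1, Fn1 and Lox had no printed entry. Bases before the start site are printed 5′ to 3′, leaving out bases that an annotated exon covers, and the capitals mark matches to the motifs searched:
Tgfb2 (chr1:186706157-186706239, minus strand): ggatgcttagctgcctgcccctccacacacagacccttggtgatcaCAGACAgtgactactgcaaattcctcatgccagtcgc
Tgfbi (chr13:56609336-56609522, plus strand): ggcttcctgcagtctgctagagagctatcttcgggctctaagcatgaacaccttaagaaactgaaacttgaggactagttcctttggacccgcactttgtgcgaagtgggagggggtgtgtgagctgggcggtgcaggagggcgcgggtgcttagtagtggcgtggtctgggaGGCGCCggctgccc
Postn (chr3:54359017-54359266, plus strand): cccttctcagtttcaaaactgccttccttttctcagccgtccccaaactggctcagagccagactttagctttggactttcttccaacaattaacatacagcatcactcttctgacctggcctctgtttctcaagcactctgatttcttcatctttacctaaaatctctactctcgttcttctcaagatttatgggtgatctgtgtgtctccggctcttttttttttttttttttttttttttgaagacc
Tnc (chr4:64047016-64047265, minus strand): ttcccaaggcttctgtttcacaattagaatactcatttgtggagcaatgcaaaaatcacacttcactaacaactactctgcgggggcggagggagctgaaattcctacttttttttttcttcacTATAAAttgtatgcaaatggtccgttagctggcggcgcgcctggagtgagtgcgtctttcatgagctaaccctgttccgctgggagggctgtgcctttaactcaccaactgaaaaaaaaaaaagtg

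The capitals in the printed stretch of Tgfb2 are CAGACA, a form of the SMAD-binding element, which stood 204 bases before the start and which 17.1% of the 32851 promoters in the table held in the 250 bases searched, on either strand. Tgfb2 also held TATAAA, the TATA box, 31 bases before the start, in the stretch not printed because an annotated exon covers it. The capitals in Tgfbi are GGCGCC, the GC-rich SMAD element, 77 bases before the start, which 9.59% of promoters held. The capitals in Tnc are TATAAA at 126 bases before the start, which 7.59% of promoters held on the strand of the gene. Postn and Tgfb1 held none of the motifs searched. The RefSeq start used for Postn lies upstream of the start of the GENCODE gene given below, so the Postn stretch stands before the RefSeq start and not next to the GENCODE one. The palindrome GTCTAGAC, the AP-1 site TGACTCA, the NF-kB site and the TEAD element GGAATG, all searched on both strands, were not in the 5 windows and were held by 0.167%, 4.46%, 0.14% and 12.6% of promoters. A match is a description of letters and not of a site in use.

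The matrices held 7710, 5149, 5465 and 6527 cell barcodes and 34491701, 38632065, 60829941 and 58369264 UMIs, molecules counted once each, in the 2-day culture, 7-day culture, 9 dpp and 14 dpp libraries, the order used for every series of 4 values below. After filters, 6879, 4817, 5146 and 6219 cells were kept, and pairs of libraries shared between 35 and 86 barcodes, at most 1.35% of the smaller library. Cells were put in classes by marker UMIs, and every one of the 9 Sertoli and 9 germ cell markers was detected in each library. Mesenchymal-like cells, which join stromal, peritubular myoid and pericyte markers, were 36.2%, 31.6%, 29.0% and 18.4% of kept cells. Endothelial-like cells numbered 49, 21, 19 and 24 and macrophage-like cells 9, 20, 27 and 47, so levels in these classes rest on few cells. Levels are UMIs per 1000000 UMIs of the cells named (CPM), with exact Poisson intervals of 95% confidence that cover counting error only. No replicate error exists, no test between groups was made, and a gene is called higher or lower where the log2 ratio of levels plus 1 is at least 1 or at most -1.

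Over all kept cells, all 9 genes had a higher level in culture than at the matching age in both pairs, although in the early pair Tgfb1 and Tgfb2 lost that direction where each cell had equal weight (log2 ratios of -0.03 and -0.00). Of the 9 genes, 4 were at least 2-fold higher in the 2-day culture than at 9 dpp, against 4.2% of the 16622 genes compared, and 0 were 2-fold lower, against 3.41%. In the 7-day culture, 6 were 2-fold higher than at 14 dpp, against 3.58% of all genes, and 0 were 2-fold lower, against 2.65%. As a median the log2 ratio of the 9 genes came to 0.83 (early pair) and 1.05 (late pair), and that of all genes to -0.12 and 0.00. The 6 of the late pair are Tgfb2, Tgfb3, Tgfbi, Postn, Tnc and Lox, and most lay close to 2-fold. Giving each cell equal weight left 3 of the 6, and adding 10 in place of 1 to the levels left 0. The share of mesenchymal-like cells, where Tgfb2, Postn and Lox had most of their UMIs in every library, differed between the libraries in the same direction, and in a whole library more cells of a class and more RNA per cell cannot be told apart.

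**Figure D1:**
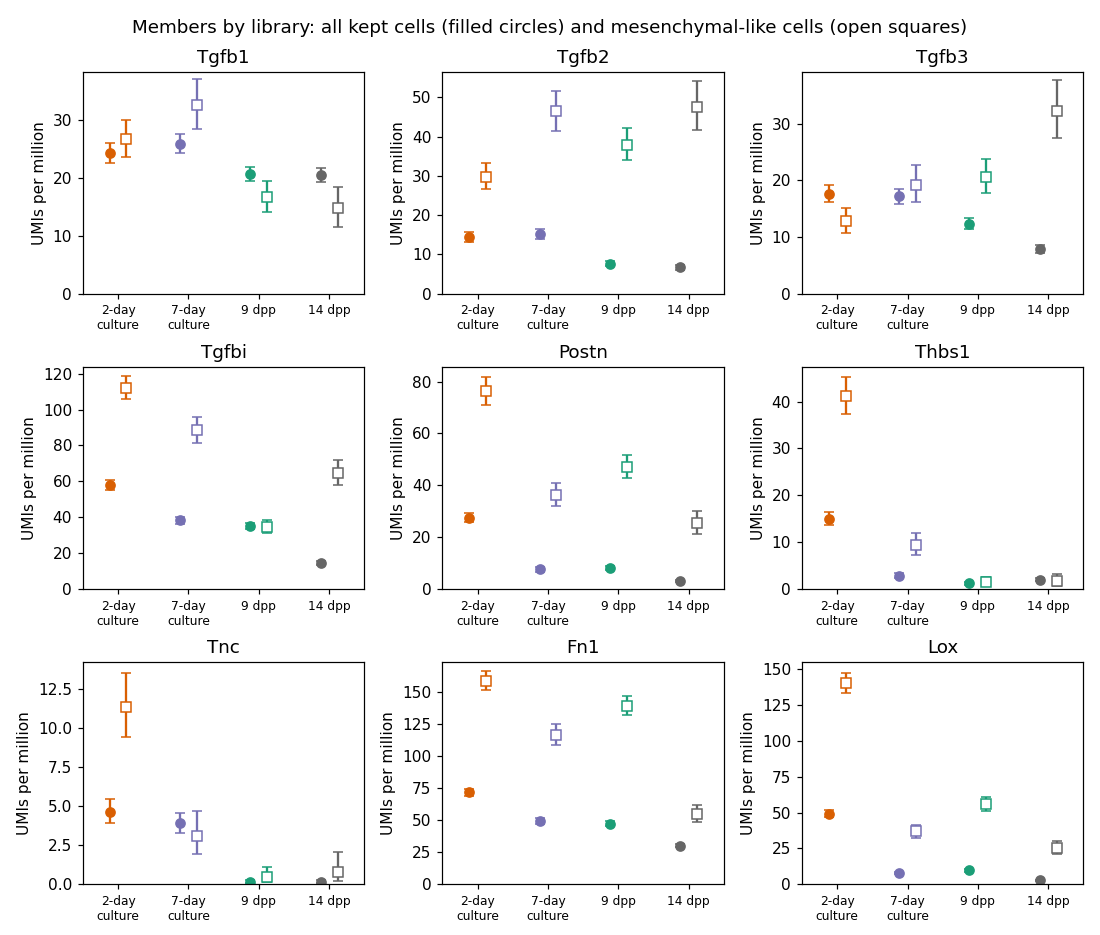
Level of each gene in CPM (vertical axes, starting at 0) in the 4 libraries, over all kept cells (filled circles) and mesenchymal-like cells (open squares). Bars are exact Poisson intervals of 95% confidence and cover counting error only. Thbs1 and Tnc are near 0 in the libraries from the animal, while Tgfb2 and Tgfb3 in mesenchymal-like cells are not higher in culture than at the matching age (for Tgfb2 in the late pair this held only with the cluster led by Rgs5).

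The ligand Tgfb1 (ENSMUSG00000002603, chr7:25687002-25705077, plus strand), the founding member of the family, differed little between the libraries, at 24.3, 25.9, 20.7 and 20.5 CPM over all kept cells. Its place among cells differed. In macrophage-like cells Tgfb1 stood at 135, 169, 235 and 259 CPM, and in endothelial-like cells at 238, 314, 102 and 72.5. The endothelial-like levels came from 140, 198, 28 and 28 UMIs, with counting intervals of 200 to 281 and 272 to 361 in culture and 68.0 to 148 and 48.2 to 105 in the animal. The 7 stromal markers in endothelial-like cells were also higher in culture, summing to 282, 289, 84.1 and 51.8 CPM, and their part in these values was not tested. All 21 of 21 endothelial-like cells of the 7-day culture held a Tgfb1 UMI, against 15 of 24 at 14 dpp, with median depths of 22852 and 15232 UMIs per cell. In stromal-like cells Tgfb1 was 20.4, 32.5, 8.38 and 9.65 CPM, higher in both cultures, with log2 ratios of 1.19 and 1.65.

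In Sertoli-like cells, the nurse cells of the tubule, Tgfb1 was 17.7, 29.7, 18.0 and 42.2 CPM, so that its highest level there was at 14 dpp. Leaving out a cluster of Sertoli-like cells with germ cell transcripts, 209 cells at 14 dpp and 1 in the 7-day culture, moved the log2 ratio of 14 dpp to 9 dpp from 1.19 to 1.34. Germ-like cells held Tgfb1 at 13.6, 9.18, 21.3 and 10.9 CPM, above the 1.47, 1.31, 1.63 and 2.42 that free RNA was estimated to give. The 3 clusters of germ-like cells with the most Ldhc, a lactate dehydrogenase of spermatocytes, at 70.0, 502 and 5015 CPM of Ldhc, held Tgfb1 at 1.17, 1.62 and 0.291. The other 7 clusters of germ-like cells held it at 9.63 to 21.5.

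Tgfb2 (ENSMUSG00000039239, chr1:186622792-186705989, minus strand) had most of its UMIs in mesenchymal-like cells in every library. Over all kept cells it stood at 14.4, 15.2, 7.63 and 6.68 CPM, and within mesenchymal-like cells at 29.8, 46.4, 37.9 and 47.6. The whole libraries therefore showed Tgfb2 higher in culture, with log2 ratios of 0.83 and 1.08, while mesenchymal-like cells did not, with -0.34 and -0.04. Mesenchymal-like cells held 69.2%, 58.5%, 79.3% and 63.2% of its UMIs. A cluster led by Rgs5, Higd1b and Cox4i2, with the pericyte markers Rgs5, Kcnj8 and Ndufa4l2 among its 10 top genes, held Tgfb2 at 54.9, 80.1, 181 and 186 CPM in 54, 48, 55 and 86 cells, from 9, 31, 65 and 73 UMIs. Without that cluster the log2 ratios of Tgfb2 in mesenchymal-like cells were -0.12 and 0.30, so that the late pair lay on the other side of 0.

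In Sertoli-like cells, Tgfb2 was 14.8, 25.5, 2.05 and 4.39 CPM. Its intervals, 12.1 to 17.9 and 21.8 to 29.6 for the cultures, lay above those of the animal, 1.39 to 2.91 and 3.32 to 5.70. The log2 ratios were 2.37 and 2.30, with free RNA subtracted 2.60 and 2.48, and with each cell weighted equally 1.78 and 1.85. Without the cluster with germ cell transcripts the late pair gave 1.88. The 7 stromal markers, all detected in each library, were also higher in Sertoli-like cells of the cultures, summing to 78.2, 34.2, 20.3 and 11.8 CPM, and their part in the values of Tgfb2 and Tgfb3 was not tested. Of the 9 genes, 6 had enough UMIs in Sertoli-like cells to be compared, of which Tgfb2 alone was 2-fold higher in the early pair, against 6.55% of 12264 genes, and 0 were lower, against 6.18%. In the late pair 3 were higher, Tgfb2, Tgfb3 and Tgfbi, against 9.96%, and 1 was lower, Fn1, against 8.24%. Fn1 stood there at 1.19 CPM in the 7-day culture and 6.51 at 14 dpp, where free RNA was estimated to give 2.50 and 3.53, and without the cluster with germ cell transcripts its log2 ratio moved from -1.77 to -0.27, so that call was lost. Different clusters held these cells: one led by Myoz2 held 60.2% of Sertoli-like cells of the 2-day and 93.6% of the 7-day culture, one led by Amh 96.9% at 9 dpp and one led by Tsx 77.1% at 14 dpp. In these main clusters Tgfb2 was 15.5, 8.52, 1.20 and 0.356 CPM. The cluster led by Myoz2 also held 10 Sertoli-like cells at 9 dpp and 7 at 14 dpp. In those few cells Tgfb2 was 148 and 242 CPM, from 13 and 14 UMIs, so within that cluster the direction was the reverse. A further 39.5% of Sertoli-like cells of the 2-day culture, 474 cells, lay in a cluster led by Hba-a1, a hemoglobin gene, Prr15 and Reg3b. There Tgfb2 was 7.93 CPM from 5 UMIs and Tgfb3 82.5 from 52, against 54.8 for Tgfb3 in the cluster led by Myoz2. The cells that carried its UMIs also differed. In the 2-day culture 105 UMIs were spread over 86 cells, whereas 116 of the 171 UMIs of the 7-day culture lay in 9 cells of a small cluster led by 1500015O10Rik, Rmst and Cnmd, with Pax8 among its top genes. A further 2 cells of that cluster held 36 of the 56 UMIs at 14 dpp. Without that cluster the Sertoli-like level of Tgfb2 was 14.8, 8.39, 2.05 and 1.57 CPM, and the log2 ratio of the late pair was 1.87. The log2 ratio of the 7-day to the 2-day culture turned from 0.75 to -0.75.

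Tgfb3 (ENSMUSG00000021253, chr12:86056745-86079041, minus strand) was mostly in Sertoli-like cells, which held 71.9%, 75.2%, 70.6% and 54.8% of its UMIs. There, as for Tgfb2, the cells lay in different clusters in each library. In Sertoli-like cells its level was 57.1, 71.6, 33.2 and 19.2 CPM, higher in each culture than in either age in the animal. The log2 ratios were 0.77 and 1.85, and without the cluster with germ cell transcripts the late pair gave 1.51. Within the cluster led by Myoz2 the direction was the reverse, from few cells of the animal. There Tgfb3 was 54.8 and 71.9 CPM in the cultures. In the 10 and 7 cells of 9 and 14 dpp it was 125 and 398, from 11 and 23 UMIs. In mesenchymal-like cells the order of the whole Sertoli-like class was turned around. Tgfb3 stood there at 12.8, 19.3, 20.6 and 32.3 CPM, with log2 ratios of -0.65 and -0.72. The 9 Sertoli markers in mesenchymal-like cells were also lower in culture, summing to 204, 210, 433 and 525 CPM. Their part in these values was not tested. The cluster led by Rgs5 held Tgfb3 at 24.4, 43.9, 131 and 165 CPM, from 4, 17, 47 and 65 UMIs. Without it mesenchymal-like cells held Tgfb3 at 12.6, 17.9, 16.1 and 20.8 CPM, with log2 ratios of -0.33 and -0.20, so that much of the difference lay in that small cluster. In myoid-like cells without it the ratios were 0.42 and 0.18, on the other side of 0. The 3′ end of Tgfb3 overlaps Ttll5 on the opposite strand, and whether the counting used strand is not given in the sources used here.

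**Figure D2:**
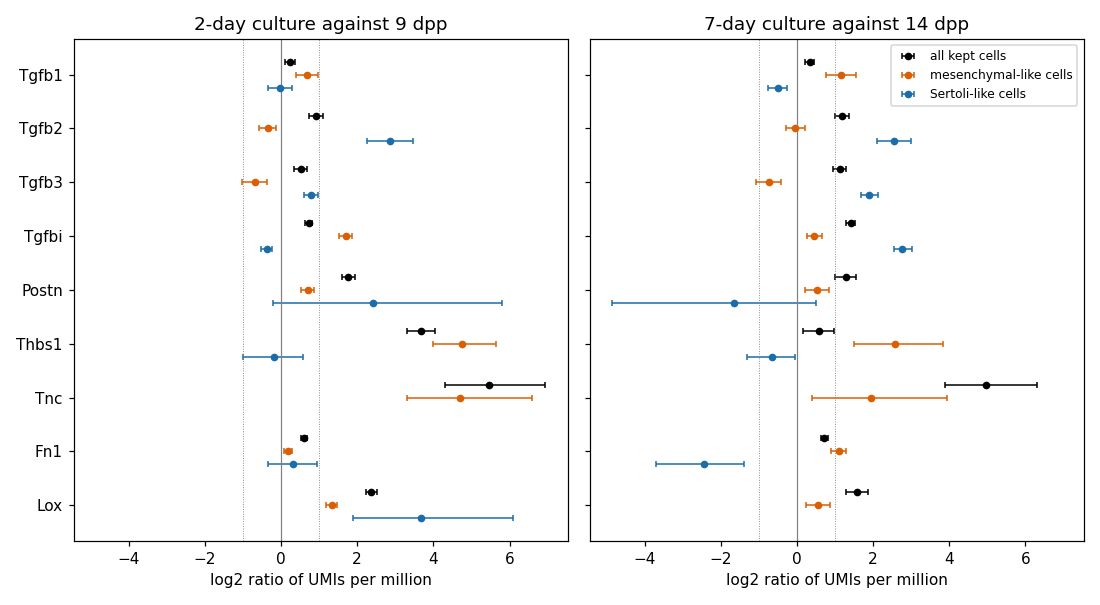
Log2 ratio of CPM (horizontal axes, with no constant added) for each gene, in the early pair (left) and the late pair (right), over all kept cells (black), mesenchymal-like cells (orange) and Sertoli-like cells (blue). Bars are exact intervals of 95% confidence for counting error, dotted lines mark 2-fold, and points with 0 UMIs in a library are left out. Tgfb2 and Tgfb3 lie right of 0 in Sertoli-like cells and at or left of 0 in mesenchymal-like cells in both pairs, except Tgfb2 in the late pair where the cluster led by Rgs5 was left out (0.30).

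Among the matrix genes, mesenchymal-like cells of the 2-day culture stood apart, with Thbs1, Tnc, Lox and Tgfbi all at least 2-fold above 9 dpp. Counting all 9 genes in mesenchymal-like cells, 4 were higher in the early pair, against 5.63% of the 12188 genes compared, and 0 were lower, against 7.5%. In the late pair 4 were higher, against 4.83%, and 0 were lower, against 4.94%. The 4 of the late pair are Tgfb1, Thbs1, Tnc and Fn1, of which Thbs1 alone stayed 2-fold higher where each cell had equal weight, and none where 10 was added to the levels. The 9 genes had median log2 ratios of 0.68 and 0.52, and all genes -0.18 and -0.02. Different clusters held most mesenchymal-like cells in each library, led by Plcxd3 and by Cxcl5 in the 2-day culture, by Plcxd3 and by Apoe in the 7-day culture, and by Tnnt2 and by Clec3b at both ages in the animal. Contractile markers also differed, with Acta2, smooth muscle actin, at 2264, 3655, 6717 and 8748 CPM of mesenchymal-like cells. These markers help to separate myoid-like from stromal-like cells, and their part in the values below was not tested.

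Thbs1 (ENSMUSG00000040152, chr2:118111876-118127133, plus strand), the adhesive glycoprotein thrombospondin 1, had 440, 67, 14 and 8 UMIs in mesenchymal-like cells, or 41.1, 9.42, 1.53 and 1.59 CPM. As a plain ratio the early pair differed 26.96-fold and the late pair 5.91-fold. The intervals of the levels were 37.4 to 45.2, 7.30 to 11.96, 0.834 to 2.56 and 0.688 to 3.14. On the log2 scale with 1 added these are 4.06 and 2.01. Stromal-like cells held Thbs1 at 22.8 and 11.3 CPM in culture, 1 UMI at 9 dpp and 0 at 14 dpp, where 0 allows a level of up to 1.52. Myoid-like cells gave log2 ratios of 4.31 (early) and 0.45 (late), the late one under 2-fold, from 7 and 7 UMIs. Thinned to 2000 UMIs per cell, 5.41%, 1.26%, 0.206% and 0.192% of mesenchymal-like cells held a Thbs1 UMI, and unthinned 10.1%, 3.68%, 0.803% and 0.701%. Germ-like cells, which give the background of free RNA, held one in 0.126%, 0.0408%, 0% and 0.055% of thinned cells. In the animal most Thbs1 UMIs lay elsewhere, 51 of 68 and 90 of 109 of them in Sertoli-like cells, at 3.38 and 7.05 CPM.

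Tnc (ENSMUSG00000028364, chr4:63959785-64047015, minus strand), tenascin C, an anti-adhesive glycoprotein of wounds and embryonic tissue, was nearly absent from the libraries of the animal. It had 148, 144, 6 and 7 UMIs in all, or 4.61, 3.88, 0.104 and 0.124 CPM over all kept cells. The whole-library levels of both cultures were alike, while the cells that held the UMIs were different. In the 2-day culture 81.8% of Tnc UMIs lay in mesenchymal-like cells and 13.5% in endothelial-like cells. In the 7-day culture the shares were 15.3% and 74.3%. All 4 and all 4 mesenchymal-like UMIs of the animal lay in the cluster led by Rgs5, where Tnc was 18.3, 15.5, 11.2 and 10.2 CPM, from 3, 6, 4 and 4 UMIs.

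The 21 endothelial-like cells of the 7-day culture held 107 Tnc UMIs, in 17 of the 21 cells and at most 16 in 1 cell. The 49 endothelial-like cells of the 2-day culture held 20 UMIs in 13 cells, and the 19 and 24 such cells of the animal held 0. As levels these are 170 CPM (139 to 205), 33.96 (20.7 to 52.5) and 0 in both libraries of the animal, where 0 allows up to 11.0 and 7.77. Depth differed as well, with a median of 8879, 22852, 10198 and 15232 UMIs per endothelial-like cell. Beside the stromal markers given for Tgfb1, the 6 pericyte markers summed to 255, 36.5, 113 and 38.9 CPM in endothelial-like cells, and the part of either list in these values was not tested. Thinned to 2000 UMIs, Tnc was held by 5.0% and 42.1% of the endothelial-like cells in culture and by 0% in the animal. All macrophage-like cells had 0 Tnc UMIs.

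**Figure D3:**
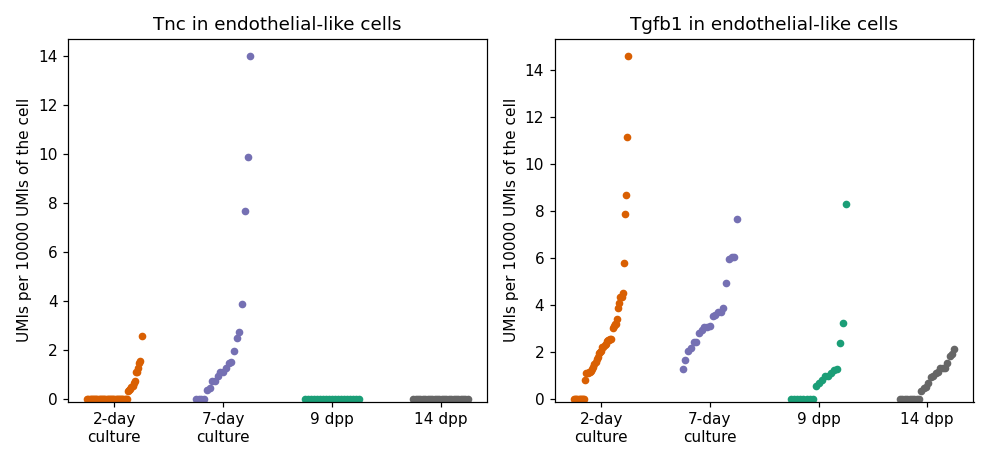
Tnc (left) and Tgfb1 (right) in single endothelial-like cells, as UMIs per 10000 UMIs of the cell (vertical axes), with 49, 21, 19 and 24 cells in the 4 libraries, sorted by value within a library. Tnc is above 0 in 13 and 17 cells of the cultures and in 0 cells of the animal, and Tgfb1 is above 0 in every such cell of the 7-day culture.

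Within the myoid-like class of the 2-day culture, a small set of cells carried most of the Tnc and many of the Thbs1 UMIs. Myoid-like cells held Thbs1 at 78.5, 3.89, 3.01 and 2.57 CPM and Tnc at 21.3, 0.556, 0 and 1.47. Of the 634 myoid-like cells of the 2-day culture, 39 lay in the cluster led by Cxcl5, Il33 and Ptx3. That cluster held 1331 cells of the 2-day culture, of which 1140 were stromal-like and the rest mostly in no finer class. Those 39 cells held 45 of the 51 Tnc UMIs and 89 of the 188 Thbs1 UMIs of the class, where the whole library had 148 and 481. Their levels were 128 CPM for Tnc, 253 for Thbs1, 324 for Lox and 11.4 for Tgfbi. The 588 myoid-like cells in the cluster led by Plcxd3 held 2.47, 48.9, 125 and 92.9 of the same genes. The 39 cells were also deeper per cell, with 352310 UMIs in all against 2023168 in the 588 cells. They were singled out after their values were seen, and doublets that the caller missed among them were not tested for.

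Lox, lysyl oxidase (ENSMUSG00000024529), which crosslinks collagen and elastin, was almost wholly mesenchymal, with 95.4%, 92.3%, 94.0% and 87.6% of its UMIs in mesenchymal-like cells. There it stood at 140, 36.8, 55.9 and 25.3 CPM, high in the 2-day culture and lowest at 14 dpp. The plain ratio was 2.51 for the early pair and 1.46 for the late pair. Between the cultures the log2 ratio of 7 to 2 days was -1.90, and between the ages that of 14 to 9 dpp was -1.11. In stromal-like cells Lox was 135, 38.2, 38.6 and 18.8 CPM, and in myoid-like cells 153, 31.1, 75.5 and 31.6, so that the late pair differed in stromal-like cells by a log2 ratio of 0.99 and in myoid-like cells by -0.02. Without the cluster led by Rgs5, which held 36 of the 86 myoid-like Lox UMIs at 14 dpp, the ratio in myoid-like cells was 0.66, from 31.9 and 19.9 CPM, and that in mesenchymal-like cells moved from 0.52 to 0.98.

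Postn (ENSMUSG00000027750, chr3:54361109-54391037, plus strand), periostin, a matricellular protein that supports collagen crosslinking, was also mesenchymal, at 76.3, 36.3, 47.1 and 25.3 CPM of mesenchymal-like cells. Its log2 ratios were 0.68 and 0.50, under 2-fold in both pairs for the class as a whole. With each cell weighted equally the ratio of the late pair was -0.37, the opposite direction. The UMIs were concentrated, since 43.0% (7-day culture) and 49.6% (14 dpp) lay in 10 cells of each library. The cluster led by Rgs5 had the highest level of Postn in each library, at 562, 82.6, 391 and 285 CPM, among those of the 6 mesenchymal clusters with at least 20 cells there. Stromal-like cells held Postn at 79.3, 40.6, 60.1 and 8.63 CPM, and myoid-like cells at 66.4, 11.7, 9.27 and 13.2. The finer classes thus went past 2-fold where the whole did not, stromal-like cells in the late pair, with log2 ratios of 0.39 (early) and 2.11 (late), and myoid-like cells in the early pair, with 2.71 and -0.17. Of the 36 myoid-like Postn UMIs at 14 dpp, 33 lay in 40 cells of the cluster led by Rgs5. Without that cluster the late pair of myoid-like cells gave 2.56, from 21 and 3 UMIs, and mesenchymal-like cells gave 1.07 and 2.73, past 2-fold in both pairs.

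Tgfbi (ENSMUSG00000035493, chr13:56609523-56639562, plus strand), named for its induction by TGF-beta, encodes a matrix protein that binds collagens and integrins. In mesenchymal-like cells its level was 112, 88.4, 34.7 and 64.5 CPM, higher in culture, with log2 ratios of 1.66 and 0.45. Myoid-like cells showed a larger difference, at 80.2, 90.6, 12.5 and 36.7 CPM and log2 ratios of 2.59 and 1.28, while stromal-like cells, at 113, 75.03, 62.0 and 109, gave 0.85 and -0.53. In macrophage-like cells Tgfbi was 257, 95.8, 170 and 262 CPM, from 21, 63, 47 and 89 UMIs, and 1 cell of the 2-day culture held 18 of the 21.

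Sertoli-like cells held Tgfbi at 78.8, 102, 102 and 15.0 CPM, so that 3 libraries were high and the 14 dpp library was low. The intervals were 72.4 to 85.6, 94.7 to 110, 97.3 to 108 and 12.9 to 17.3. The log2 ratio of 14 dpp to 9 dpp was -2.69, and over 5 further settings and both reduced sets of cells it lay between -2.35 and -2.85. The ratio of the 7-day culture to 14 dpp was 2.69. Thinning to 2000 UMIs left out 452, 22, 15 and 71 Sertoli-like cells, the first of 1200 in the 2-day culture. Of the thinned cells, 13.9%, 19.9%, 20.02% and 2.12% held a Tgfbi UMI. Unthinned, 27.3%, 57.2%, 68.7% and 14.0% of all Sertoli-like cells held a Tgfbi UMI, at median depths of 3228, 9265, 13980.5 and 9971. Germ-like cells, at median depths of 3539, 6431, 10913 and 6802, held one in 0.592%, 0.779%, 2.21% and 0.97% unthinned. Within the clusters that held most Sertoli-like cells Tgfbi was 76.7 and 103 CPM in the cultures (led by Myoz2), 103 at 9 dpp (led by Amh) and 18.3 at 14 dpp (led by Tsx). The 9 Sertoli markers summed to 13991, 15425, 18178 and 18922 CPM of the class, and the 9 germ cell markers to 257, 404, 312 and 1508.

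**Figure D4:**
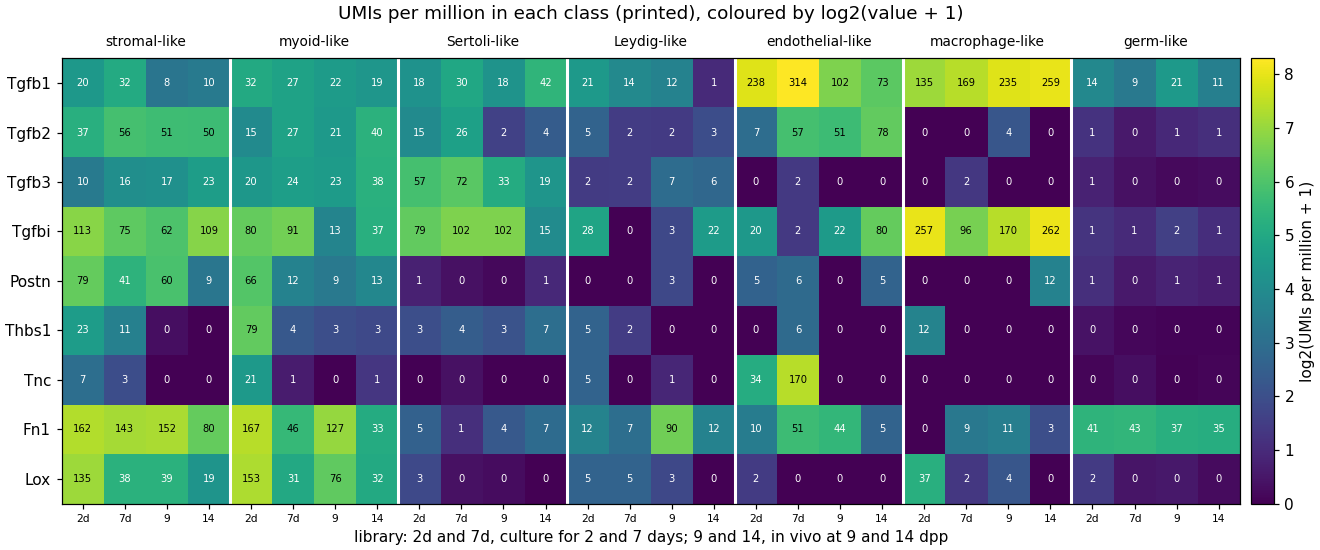
Levels of the 9 genes (rows) in 7 cell classes, each with 4 libraries (columns), printed as CPM rounded to whole numbers and coloured by log2(value + 1). In the classes drawn, Tgfb1 is highest in endothelial-like and macrophage-like cells, Tgfb3 in Sertoli-like cells except at 14 dpp, Postn and Lox mostly in stromal-like and myoid-like cells, and Fn1 is also present in germ-like cells.

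Fn1 (ENSMUSG00000026193, chr1:71585520-71653200, minus strand), fibronectin, the scaffold on which other matrix proteins assemble, was 159, 117, 139 and 54.6 CPM in mesenchymal-like cells. The 2-day culture and 9 dpp were close, with a log2 ratio of 0.19, and the late pair differed by 1.08. The level at 14 dpp was low, with a log2 ratio to 9 dpp of -1.34. Stromal-like cells kept 143 CPM in the 7-day culture against 80.2 at 14 dpp, while myoid-like cells had 46.2 and 33.4, with log2 ratios of 0.83 and 0.45, so that the late pair was under 2-fold in each. Leydig-like cells held Fn1 at 12.1, 7.06, 89.8 and 11.7 CPM, from 7, 4, 107 and 12 UMIs, with 41 of 81 cells at 9 dpp holding one. The 7 stromal markers in Leydig-like cells summed to 293, 261, 878 and 551 CPM, and their part in this value was not tested.

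Germ-like cells held Fn1 at 40.8, 42.7, 36.9 and 35.4 CPM, and 21.6%, 48.2%, 41.4% and 70.8% of all Fn1 UMIs. Free RNA was estimated to give 4.34, 2.50, 3.70 and 3.53 CPM, and Sertoli-like cells, which share that free RNA, held 4.93, 1.19, 3.97 and 6.51. Germ-like cells thus stood at 35.4 to 42.7 CPM in all 4 libraries, above Sertoli-like cells in each. Within germ-like cells, 8 clusters held Fn1 at 28.4 to 56.9 CPM. The 2 clusters with the most Ldhc, at 502 and 5015 CPM, held Fn1 at 7.01 and 2.33.

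**Figure D5:**
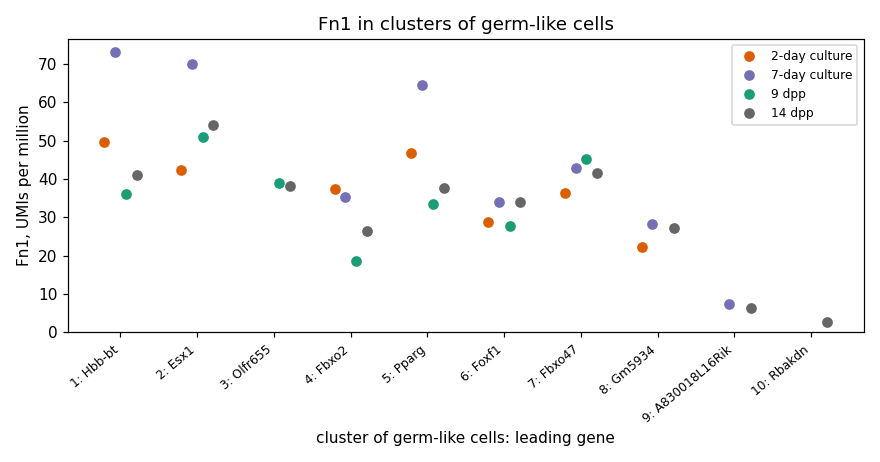
Fn1 in CPM (vertical axis) in 10 clusters of germ-like cells, numbered by size and labelled by their leading gene (horizontal axis), for each library with at least 50 cells in the cluster. Clusters 9 and 10, which hold the most Ldhc, lie at 7.4 or less, and the other clusters lie between 18.5 and 73.005.

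Few cells held several matrix transcripts at once. Thinned to 2000 UMIs, at least 3 of the 6 matrix genes were seen in 3.45% of mesenchymal-like cells of the 2-day culture, and in 0.769%, 0.754% and 0.287% of the other libraries in order. None of the 6 was seen in 42.2%, 67.2%, 63.3% and 76.0%. The exact Clopper-Pearson intervals of the first shares were 2.73% to 4.30%, 0.384% to 1.37%, 0.377% to 1.35% and 0.0593% to 0.837%, and cover counting error over the cells of these 4 libraries only.

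Several matrix genes were lower later. In mesenchymal-like cells, 4 of the 9 genes, Postn, Thbs1, Tnc and Lox, were at least 2-fold lower at 7 than at 2 days of culture, against 3.4% of all genes, and 0 were higher, against 3.33%. With 10 added to the levels, 2 of these 4 calls were left. From 9 to 14 dpp, 2 of the 9, Fn1 and Lox, were lower, against 2.73%, and 0 were higher, against 2.17%. These comparisons share libraries with the pairs above. Over all kept cells 3 genes were lower from 2 to 7 days, against 2.37%, and 0 higher, against 4.51%. From 9 to 14 dpp 3 were lower there, against 1.97%, and 0 higher, against 4.08%.

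Other genes of the pathway were counted in mesenchymal-like cells by list. Of all 12188 genes there, 5.63% were 2-fold higher and 7.5% lower in the early pair, and 4.83% and 4.94% in the late pair, so that in lists of 5 to 14 genes a count of 0 or 1 is near the share of all genes. Of 5 receptors, 0 were 2-fold higher in either pair and 1 was lower in the early pair. That gene is Eng, the co-receptor endoglin, at 36.5, 53.8, 99.8 and 94.6 CPM, while Tgfbr2, the ligand-binding receptor, stood at 43.5, 26.004, 22.2 and 16.1. Of 11 SMAD genes and their regulators, 1 was higher in both pairs, the repressor Tgif1, at 63.7, 47.1, 29.2 and 21.1 CPM. Smad7, an inhibitor that the pathway induces, was 16.6, 26.6, 11.8 and 14.1.

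Of 12 genes of latency and activation, 2 were higher and 2 lower in each pair, against 5.63% and 7.5% (early) and 4.83% and 4.94% (late) of all genes. Itgb5, a subunit of an integrin that binds latent TGF-beta, was 43.6, 46.7, 9.70 and 10.2 CPM, and Lrrc32, which tethers it to the cell surface, was 21.6, 22.2, 10.2 and 6.77. Itgb3, another integrin subunit of this list, went the other way, at 2.62, 3.23, 9.04 and 9.76 CPM, with log2 ratios of -1.47 and -1.35. Ltbp4, a latent TGF-beta binding protein of the matrix, was also lower in culture, at 101, 237, 509 and 451. Its log2 ratios were -2.32 and -0.93, under 2-fold in the late pair. Of 12 further response genes, 2 were higher and 1 lower in each pair, the latter near the share of all genes. Bhlhe40, a transcriptional repressor that also responds to other signals, was 32.3, 37.4, 2.07 and 3.39 CPM and Cdkn2b, a cell cycle inhibitor, 11.3, 6.61, 1.31 and 2.39. Ctgf, a widely used marker of the response, was lower in culture, at 71.4, 122, 202 and 255.

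Of 10 crosslinking enzymes beside Lox, 1 was higher in the early pair, against 5.63% of all genes, namely Loxl2, at 51.6, 41.0, 24.3 and 39.6 CPM, and 0 changed past 2-fold in the late pair. Of 14 other matricellular genes, 3 were higher and 4 lower in the early pair, and 3 higher and 3 lower in the late pair, against 5.63% and 7.5% (early) and 4.83% and 4.94% (late) of all genes. Spp1, osteopontin, was 399, 21.8, 0.109 and 0.996 CPM, while Thbs3, a relative of Thbs1, was lower in culture at 30.2, 26.8, 69.6 and 63.5. Of 11 matrix receptors, 4 were higher and 2 lower in the early pair and 3 higher and 3 lower in the late pair, against the same shares of all genes. Cd44, the hyaluronan receptor, was 66.3, 30.9, 8.61 and 3.19 CPM, and Itga4, an integrin subunit that binds fibronectin, was 3.55, 3.09, 16.2 and 11.2. The median log2 ratios of these 7 lists ran from -0.25 to 0.53 (early pair) and from -0.04 to 0.30 (late pair).

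The genes whose pattern was most like each member were found over 20 sums, 5 classes in each of 4 libraries, which share depth and library within a column. Pearson correlations of log2 levels are given as a description. Lox was most like Fstl1 (0.96), Col1a1 and Loxl1, and Postn most like Saa1 (0.96), Vcan and Fap. Tgfb3 was most like Etl4 (0.96), Stard8 and Dpysl2, and Tgfb2 most like Rnf122 (0.93), Steap3 and Islr. For Tgfbi the nearest was Mmp23 (0.90), for Fn1 Pycr1 (0.92), for Thbs1 Gm14005 (0.89) and for Tgfb1 Ccdc71 (0.83). Tnc had too few UMIs in these classes for such a search.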

How the data were processed

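Per the labels, the 4 single-cell libraries were made with 10x Chromium 3′ v2 chemistry. The same protocol text names female gonad and stem-cell-derived cells, which goes against the testis label of these samples, so the chemistry is given with that doubt. The deposited matrices hold raw UMI counts per gene and barcode, which the authors made with Cell Ranger 3.0.2 on mm10, per the submitters' processing notes. The annotation, the strand setting and the calling of cells are not given in the sources used here. Gene positions come from GENCODE M21 on GRCm38. The 9 genes, the pathway lists and the markers were chosen with earlier results of these data known.

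Barcodes needed 500 genes or more, with no more than 20% of UMIs from mitochondrial genes, and 251, 92, 147 and 119 doublets called by Scrublet (scanpy 1.11.5, expected rate 6%) were left out. A cell was put in a class when it held at least 3 UMIs from at least 2 markers of that class and these were at least 66.7% of its UMIs over the markers of all classes. Between 54 and 187 cells a library lay near that line, with 60% to 73%. Classes were rebuilt here, so they may differ from those of the study. Counts were summed by class and library and scaled to UMIs per 1000000 (CPM). Ratios are log2 of levels plus 1, over genes with at least 50 UMIs in the 4 libraries of that class, with exact conditional intervals for the plain ratio. With 1 library in each group, p-values were not computed. A count of 0 is given the limit of 3 counts. Shares of cells with a UMI were also taken after thinning to 2000 UMIs, which left out 1301, 257, 95 and 275 cells. Free RNA was scaled from 5 collagen and microfibril genes in germ-like cells, which held 6.06%, 5.07%, 7.86% and 11.8% of the whole-library level. Leiden clusters (leidenalg 0.10.2) were made without the listed genes. The ratio step was checked on simulated data.

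Named by rule were all 9 members, from each pathway list up to 3 genes higher and 2 lower in culture with the same sign in both pairs, the 3 genes most like each member, and the 3 leading genes of mesenchymal clusters. Not every gene so named is printed. The alternatives were constants of 0.1 and 10, TMM factors (edgeR 4.0.16), no minimum of UMIs, a stricter filter of 1000 genes and 10% mitochondrial UMIs, doublets kept, cells weighted equally, 90% of marker UMIs, classes by cluster and free RNA subtracted.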

Additional observations from a re-analysis of the deposited data

Results flagged for a closer look

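Tgfbi in Sertoli-like cells went in opposite directions in the early and late pairs. Its log2 ratio was -0.37 in the 2-day culture against 9 dpp and 2.69 in the 7-day culture against 14 dpp, with counting intervals on opposite sides of 0. With 1 library in each group the difference between the pairs was not tested. The pairs differ mainly in the level in the animal, which was 102 CPM at 9 dpp and 15.0 at 14 dpp, while the cultures held 78.8 and 102. Without the cluster of Sertoli-like cells that held germ cell transcripts, 209 cells at 14 dpp, the ratio of the late pair was 2.35.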

How the results depend on the processing

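No paired analysis was possible because each group holds 1 library and no test was made. Among values called over all kept cells or in mesenchymal-like cells, none changed its direction under the alternatives. Values of the other classes were not part of this count. Of 112 values called over all kept cells, counted once per setting, 16 fell under 2-fold, and of 154 in mesenchymal-like cells 10 did. Adding 10 to the levels, which shrinks the ratio of every gene near that level, took the 6 genes higher in the late pair over all kept cells to 0 and the 3 lower from 9 to 14 dpp to 0. In mesenchymal-like cells it took the 4 higher in the late pair to 0, the 2 lower from 9 to 14 dpp to 1, and the 4 lower from 2 to 7 days of culture to 2. Weighting cells equally left 3 of the 6 and 1 of the 4, and the cause was not tested. TMM factors moved the median of all genes in the early pair from -0.12 to 0.02 over all kept cells and from -0.18 to -0.03 in mesenchymal-like cells, and left every count of members within 1.5 times. Without the cluster led by Rgs5 the members higher in mesenchymal-like cells numbered 5 in place of 4 in each pair, and those lower from 9 to 14 dpp 3 in place of 2, Postn being the addition each time. This alternative and those for Sertoli-like cells were added after the values were seen. Depth limits Thbs1 and Tnc most, with 14 and 4 UMIs in mesenchymal-like cells at 9 dpp, and 1 library in each group limits every comparison.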
